A study of Arabidopsis thaliana with 12 samples.

Results

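CRABS CLAW (CRC, AT1G69180) is read on the Affymetrix ATH1 array by probe set 260355_at, 1 of the 22746 probe sets measured besides the array controls. The probe set was chosen by its signal on the steroid and mock arrays of days 1, 3 and 7 in this study, so its levels below are a description and carry no test. The assignment of 260355_at to CRC comes from the rule that chose it. The table of gene names used here pairs the probe set with no gene, so the name could not be checked against the array annotation.

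The samples were inflorescence tips of Arabidopsis thaliana plants homozygous for ap1-1 and cal-1, which carried 35S:AGGR, a fusion of AGAMOUS to the rat glucocorticoid receptor. Steroid-treated tips had received 10 µM dexamethasone with 0.1% ethanol and 0.015% Silwet L-77, and mock-treated tips the same ethanol and Silwet without the steroid. RNA was taken 1, 3 or 7 days later, from 2 independent steroid samples and 2 independent mock samples at each time, or 12 samples and 12 arrays in all. All groups, the mock groups included, shared both mutations and the transgene. The 35S promoter is active in most plant tissues, so the fusion was not restricted to the cells that normally make AGAMOUS, and no plants without the fusion were among the samples.

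CRC encodes a transcription factor of the YABBY family, plant proteins with a zinc finger and a helix-loop-helix domain called the YABBY domain. In wild-type Arabidopsis flowers CRC is made in the outer (abaxial) cells of the developing carpels and in the nectaries. Its mutants have carpels that fail to fuse at the tip and lack nectaries, and CRC also helps to end the activity of the floral meristem. AGAMOUS, the MADS-domain protein that specifies stamens and carpels, is a known activator of CRC. In ap1-1 cal-1 plants the meristems that would become flowers instead go on making further meristems, and steroid lets the fusion protein enter the nucleus, so that stamens and carpels begin to form together.

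The values are signal intensities on a linear scale. Arrays were brought to a common median of 24.8, called the scaled signal here. Differences are of log2(scaled signal + 4.35), where the added offset damps the noise of weak signals and also shrinks the change of a probe set that is weak in 1 group. Before scaling, the array medians ran between 16.1 and 20.8 for day 1, between 20.1 and 32.2 for day 3, and between 62.6 and 95.2 for day 7. The 3' to 5' ratio of the GAPDH control, a sign of RNA and cRNA quality, ran from 4.16 to 11.2, from 6.60 to 15.8 and from 1.09 to 1.41 on these days. Between replicates the median SD of log2 signal came to 0.33, 0.32 and 0.13 for days 1, 3 and 7. Depth has no counterpart on an array, and the 2 arrays of each group limit the precision of every value.

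CRC signal was high in every steroid-treated sample and low in every mock sample. On day 1 the scaled signal was 52.1 and 62.8 on the steroid arrays, against 2.00 and 2.50 on the mock arrays. On day 3 it was 159 and 92.7 on the steroid arrays, against 12.6 and 1.86 on the mock arrays. On day 7 it was 648 and 415 on the steroid arrays, against 0.585 and 3.57 on the mock arrays. The steroid and mock arrays did not overlap on any day, and the dimmest steroid array of all days was 4.13 times as bright as the brightest mock array. Of the 16511 probe sets bright enough to be tested, 12 had all 6 steroid arrays above all 6 mock arrays, or 0.0727%, and CRC was 1 of these. Both steroid arrays lay above both mock arrays on each of the 3 days in 0.533% of tested probe sets.

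**Figure D1:**
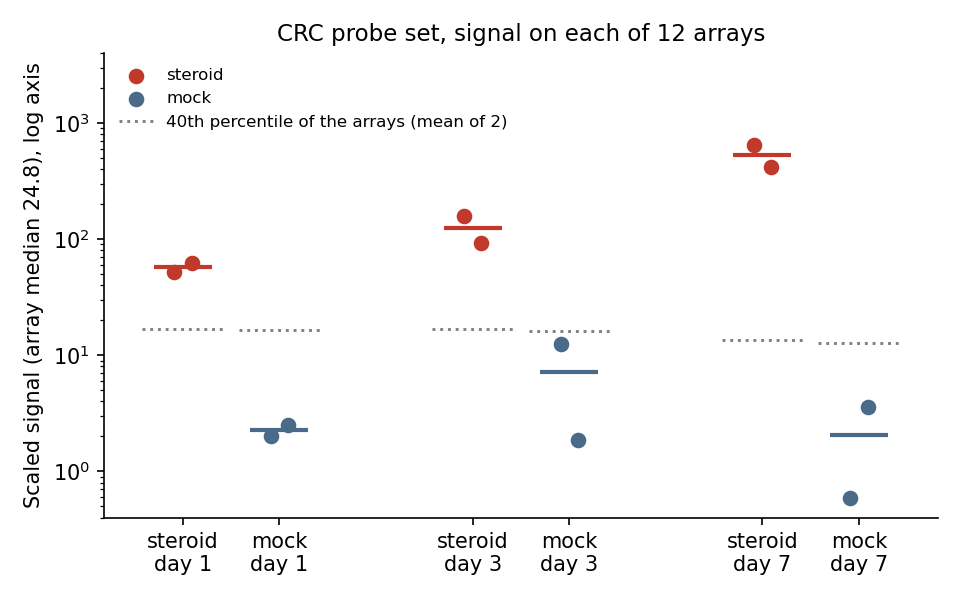
Scaled signal of the CRC probe set on a log axis, for the steroid and mock arrays of days 1, 3 and 7. Points are single arrays, solid bars are means of 2 arrays and dotted lines are the mean 40th percentile of all probe sets on those arrays. All 6 steroid points lie above the dotted lines, from 52.1 to 648, and all 6 mock points lie below them, from 0.585 to 12.6.

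The group means give the size of the difference on each day. On day 1 CRC averaged 57.5 ± 7.53 in steroid tips and 2.25 ± 0.355 in mock tips (SD, n = 2 each), a log2 difference of 3.22 or 9.34-fold on the offset scale. On day 3 it averaged 126 ± 46.6 in steroid tips and 7.24 ± 7.60 in mock tips, a log2 difference of 3.61 or 12.2-fold. On day 7 it averaged 532 ± 165 in steroid tips and 2.08 ± 2.11 in mock tips, a log2 difference of 6.39 or 83.8-fold. On each day this was the largest steroid minus mock difference among the tested probe sets. Over all tested probe sets the median difference was -0.03, -0.12 and 0.00 for days 1, 3 and 7, and the 99th percentile 1.38, 1.33 and 0.77. In whole inflorescence tips, more cells that make CRC and more CRC RNA in each such cell cannot be told apart.

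The mock signal was so weak that the ratio has no firm size. All 6 mock arrays had CRC below the 40th percentile of their own array, the level that the filter on dim probe sets used, and all 6 steroid arrays had it above. CRC therefore entered the set of tested probe sets through the steroid arrays alone. Without the offset, the scaled group means stood in ratios of 25.5, 17.4 and 256 for days 1, 3 and 7. These ratios rest on mock signals below the 40th percentile of their own arrays. The calls of presence or absence that the array software can give are not used here, so the data do not say whether mock tips held any CRC RNA.

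The place of CRC among the probe sets of the same array depends on no scaling. On the steroid arrays, 68.3% and 74.1% of probe sets had a lower signal than CRC on day 1. These shares were 90.2% and 85.1% on day 3 and 98.6% and 97.5% on day 7. On the mock arrays they were 11.8% and 14.9% on day 1. They were 34.0% and 11.5% on the day 3 mock arrays, and 6.26% and 22.0% on those of day 7. CRC thus lay in the upper part of the signal range on every steroid array, and on day 7 only 307 and 574 probe sets of those arrays were brighter.

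**Figure D2:**
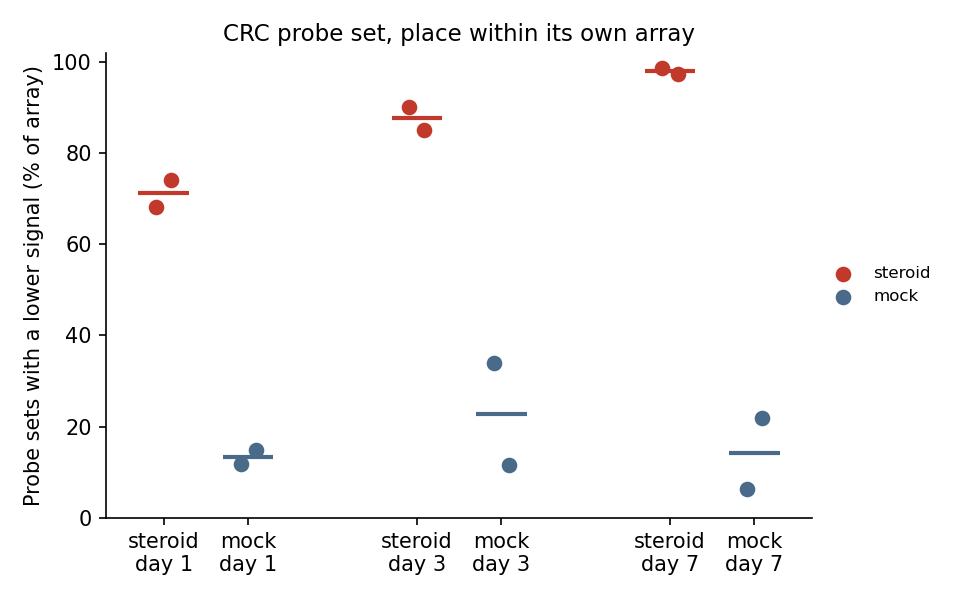
Percent of probe sets of the same array with a signal below that of the CRC probe set, for the steroid and mock arrays of days 1, 3 and 7. Points are single arrays and bars are means of 2 arrays. The steroid arrays run from 68.3% to 98.6% and the mock arrays from 6.26% to 34.0%.

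Within the steroid arrays the CRC signal stood higher on each later day. The group mean on day 3 was 2.19 times that of day 1 and the mean of day 7 was 4.23 times that of day 3, with no overlap between the arrays of successive days. On the offset scale the steps were 1.03 and 2.06 in log2. In mock tips the groups overlapped: the log2 mean of day 3 was 0.64 above that of day 1, and the mean of day 7 was 0.72 below that of day 3 and 0.08 below that of day 1. From highest to lowest, the groups were steroid day 7, steroid day 3, steroid day 1, mock day 3, mock day 1 and mock day 7, and neighbours in this order did not overlap down to mock day 3, while the 3 mock groups overlapped with their neighbours.

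Other features of the arrays changed with the day as well. The day 7 arrays were brighter and had the lower GAPDH ratios given above, and they were scanned on other dates than those of days 1 and 3. The summed scaled signal of 3 green tissue genes with a probe set (RCA, LHCB4.1 and LHCB4.2, which serve photosynthesis) was 220 to 286 in steroid and 233 to 416 in mock tips on day 1. On day 3 it was 213 to 242 in steroid and 277 to 285 in mock tips, and on day 7 it was 948 to 1044 in steroid and 1065 to 1086 in mock tips. The part of these features in the rise of CRC over days was not tested.

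Scan dates bear on the steroid and mock comparison too. On day 1, the 2 steroid arrays and mock replicate 2 were scanned on the same date, and the CRC log2 difference within that date was 3.17. On day 3, steroid replicate 1 and both mock arrays shared a date, and the difference within it was 3.99. On day 7 the steroid arrays had one date and the mock arrays another, so scan date and treatment cannot be told apart there.

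Replicates of CRC were close on day 1 and further apart later. For CRC the SD of log2 signal between replicates came to 0.14, 0.82 and 0.47 for days 1, 3 and 7. On day 3 most of it came from the mock arrays, at 12.6 and 1.86. The day 3 log2 difference was 4.34 without mock replicate 1 and 2.89 without mock replicate 2.

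The probe sets most like CRC across the 12 arrays were ranked by Pearson's r of log2(scaled signal + 4.35), as a description, since all of them share the same arrays and the same treatment. Of the tested probe sets, 4 had an r of at least 0.9 with CRC and 14 an r of at least 0.8. The median r was -0.04 and the 99th percentile was 0.53. The closest was 251898_at (r = 0.963), which the table of gene names leaves without a gene. On day 1 its scaled signal was 25.7 and 32.6 on the steroid arrays, against 0.924 and 1.07 on the mock arrays. On day 7 it was 217 and 229 on the steroid arrays, against 6.43 and 3.18 on the mock arrays. Like CRC it was weak in mock tips and bright in steroid tips from day 1, with log2 differences of 2.64, 3.35 and 4.66 on days 1, 3 and 7. It lay below the 40th percentile on every mock array, so it too entered the tested set through the steroid arrays alone.

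The next probe sets in this order had smaller differences than CRC on each day, as all other tested probe sets did. The unnamed 246072_at (r = 0.924) had a log2 difference of 0.30 on day 1, 0.91 on day 3 and 2.33 on day 7, and it already stood at 90.1 and 112 on the mock arrays of day 1. AT3G11000 (r = 0.922) had 1.69, 1.85 and 2.50. The unnamed 254391_at (r = 0.905) had 0.24, 2.15 and 3.14, so its day 1 arrays showed little of the difference seen later. AT5G01075 (r = 0.872), AT2G35310 (r = 0.872), 251394_at (r = 0.864) and AT1G47610 (r = 0.864) completed the 8 most alike, with day 7 log2 differences of 0.56, 1.49, 1.01 and 2.68. AT2G35310 is a REM gene, one of a set of B3-domain factors made in reproductive meristems. With the mean of each day removed, 6 of these 8 were again among the 8 most alike, and by Spearman's rho also 6.

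**Figure D3:**
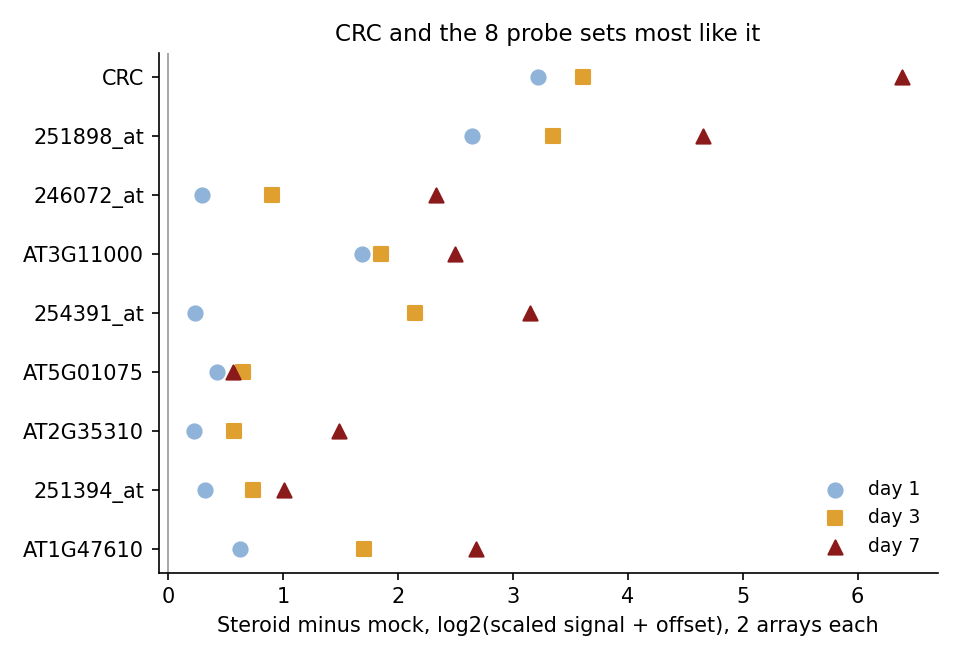
Steroid minus mock difference in log2(scaled signal + 4.35) on days 1, 3 and 7, each from 2 steroid and 2 mock arrays, for CRC and the 8 probe sets with the highest Pearson's r with it over 12 arrays, in that order. All 9 have positive values on each day, and CRC has the highest value on each day, as it has among all tested probe sets.

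The probe sets that came next to CRC in the size of the difference changed from day to day. On the offset scale, those of day 1 were 254197_at (7.60-fold), 251898_at (6.24-fold) and 261768_at (5.22-fold). Those of day 3 were 251898_at (10.2-fold), 254595_at (4.59-fold) and AT5G39560 (4.55-fold), and those of day 7 were 251898_at (25.3-fold), 264872_at (10.4-fold) and 254391_at (8.85-fold). Of these 7 probe sets only 251898_at stood beside CRC on all 3 days. The change in 254197_at was 1.22-fold on day 3 and 1.11-fold on day 7, and that in AT5G39560 was 0.975-fold on day 1 and 1.02-fold on day 7.

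Genes with roles near that of CRC were read from 6 lists. Of their 150 members besides CRC, 34 had a named probe set and 22 were bright enough to be tested, so the lists are covered only in part. Probe sets without a name may belong to further members. limma, fitted to all 12 arrays and adjusted over the 16511 tested probe sets by the Benjamini-Hochberg method, called 0 of the 22 on day 1, 0 on day 3 and 0 on day 7 at an adjusted p under 0.05. Over all tested probe sets, CRC included, the called share was 0.0182% for day 1, 0.0182% for day 3 and 0.0545% for day 7. An unadjusted p under 0.05 was found for 2 of the 22 on day 1 (YAB5 and ROXY1), 0 on day 3 and 1 on day 7 (NUB). Of all 16511 tested probe sets, 1374, 1007 and 229 had such a p on days 1, 3 and 7. Fitted to the 4 arrays of each day alone, limma called 0 of the 22 on days 1 and 3, with 1 and 0 at an unadjusted p under 0.05, and 1 on day 7, with 8 at an unadjusted p under 0.05. Over all tested probe sets the called share was 1.62% in the day 7 fit, 0.933% being higher in steroid tips, and 0% in the fits of days 1 and 3. In these fits 517, 469 and 2386 of the 16511 had an unadjusted p under 0.05 on days 1, 3 and 7.

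The YABBY family members other than CRC did not pass the test on any day in either fit. YAB3 and YAB5 are known from the abaxial side of leaves and floral organs, and INO from the outer integument of the ovule. YAB5 had a scaled signal of 41.8 and 13.2 on the day 1 steroid arrays, against 4.62 and 6.68 on the mock arrays. The steroid arrays were both higher but far apart, and the log2 difference was 1.52 (SE 0.46, limma adjusted p = 0.452). On day 3 YAB5 stood at 26.3 and 23.9 in steroid tips, against 23.8 and 13.1 in mock tips, with a log2 difference of 0.41. On day 7 YAB5 stood at 12.5 and 11.9 in steroid tips, against 9.74 and 8.60 in mock tips, with a log2 difference of 0.29. Its steroid arrays were thus above its mock arrays on each of the 3 days, narrowly on day 3, which held for 0.533% of tested probe sets. YAB3 had log2 differences of 0.12, -0.31 and -0.02 on days 1, 3 and 7. INO had 0.05, -0.23 and -0.14. FIL and YAB2, the remaining members listed, had no named probe set here.

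Among regulators of the gynoecium, style and ovule, 7 of 39 were tested. On day 7 NUB, a zinc finger gene that acts with JAG in stamen and carpel growth, was higher in steroid tips. Its scaled signal was 25.8 and 21.7 on the steroid arrays, against 1.78 and 6.17 on the mock arrays. The log2 difference was 1.80 (SE 0.28, adjusted p = 0.0106 in limma's fit of the 4 day 7 arrays, and SE 0.60, adjusted p = 1.00, in the fit of 12 arrays). NUB had log2 differences of -0.66 on day 1 and 0.91 on day 3, neither called. The larger day 7 value was not shown to differ from those of the other days, because limma called 0 of the 22 members, and 0 of all tested probe sets, for any difference in effect between days. At an unadjusted p under 0.05 these 3 tests had 1, 1 and 0 of the 22 members and 906, 725 and 399 of all tested probe sets, for day 3 against day 1, day 7 against day 1 and day 7 against day 3.

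None of the other tested members of this list passed in either fit on day 7. NGA2, of a B3-domain family that acts in style formation, had a log2 difference of 0.56 on day 7, and NGA4 of the same family had 0.29. SPT and ALC, related bHLH factors of carpel and fruit, had 0.20 and 0.26, HLL, an ovule growth gene, had 0.29, and SEU, a transcriptional corepressor, had 0.01. All 7 tested members thus lay above 0 on day 7, against 3 on day 1 and 6 on day 3, with list medians of 0.29, -0.02 and 0.38. Over all tested probe sets the medians were 0.00, -0.03 and -0.12 on days 7, 1 and 3. On day 7 scan date and treatment cannot be told apart. At an unadjusted p under 0.05 the day 7 fit had ALC, NGA2 and HLL beside NUB, and 2386 of all 16511 tested probe sets. From the other lists it had ULT1, AGL24, ROXY1 and LHCB4.2, which were all lower in steroid tips. Their day 7 log2 differences were -0.31, -0.32, -0.57 and -0.37. In 6 of the 7 both day 7 steroid arrays were above both mock arrays, which held for 22.4% of all tested probe sets. On day 1 this was so for SEU alone, and the reverse for NUB. On day 3 it was so for NGA4 alone, and the reverse for SPT.

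A further 5 members of this list were too dim to be tested, and their values are given without a test. NGA3, which also acts in style formation, had a scaled signal of 9.35 and 4.67 on the day 7 steroid arrays, against 1.05 and 0.729 on the mock arrays. NGA1 had 13.5 and 8.90 on the steroid arrays, against 5.29 and 1.43 on the mock arrays. JAG, the partner gene of NUB, had 14.3 and 12.8 on the steroid arrays, against 1.70 and 3.28 on the mock arrays. JAG was the reverse on day 3, without overlap, with means of 4.13 in steroid tips and 13.2 in mock tips. Of all arrays of these 3 genes, only 1 reached the 40th percentile of its array. VDD, an ovule gene, had 4.60 and 2.42 in steroid tips, against 0.731 and 1.25 in mock tips, and HAF, a bHLH gene of the transmitting tract, had 0.515 and 1.63 in steroid tips, against 1.08 and 1.46 in mock tips. In 4 of the 5 both day 7 steroid arrays were above both mock arrays, which held for 21.2% of the 6235 probe sets too dim to be tested. The earlier days differed from this. Both day 3 steroid arrays were above both mock arrays for NGA1 and VDD, while those of NGA3 and HAF overlapped with mock. The day 1 arrays overlapped between treatments in all 5.

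Nectary genes gave little to set beside CRC. Of 20 listed, 3 had a named probe set and 1 was tested: SWEET9, the sugar transporter gene needed for nectar secretion. Its log2 differences were -0.37, -0.05 and 0.12 on days 1, 3 and 7, and it did not pass in either fit. On day 7 its scaled signal was 6.77 and 8.32 in steroid tips, against 7.46 and 5.73 in mock tips, so the arrays of the treatments overlapped. SWEET15, another sugar transporter gene, and JMT, a jasmonate methyltransferase gene, were below the 40th percentile on all 12 arrays and were not tested. On day 7 JMT had 7.09 and 4.55 in steroid tips, against 0.614 and 1.04 in mock tips, and SWEET15 had 5.98 and 4.96 in steroid tips, against 4.62 and 2.76 in mock tips. Both day 7 steroid arrays were the brighter in these dim genes, which held for 21.2% of the 6235 probe sets too dim to be tested. The arrays of JMT overlapped between treatments on days 1 and 3, and those of SWEET15 on day 1.

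Genes of floral organ identity, meristem identity and determinacy included 5 tested members of 31 listed. AGAMOUS had no named probe set, so the fusion transgene could not be checked by name. CLV3, the signal peptide gene that limits stem cell number, had log2 differences of -0.17, -0.37 and 0.35 on days 1, 3 and 7. ULT1, a gene of floral meristem determinacy, had -0.06, -0.46 and -0.31. The inflorescence MADS gene AGL24 had -0.15, -0.24 and -0.32, the petal gene RBE 0.32, 0.53 and 0.15, and the auxin synthesis gene YUC4 0.10, -0.17 and -0.45. None of these 5 passed in either fit. Listed genes without a named probe set, AP3 and PI among them, are not covered, and probe sets left unnamed above may belong to them. UFO, which acts in petal and stamen identity, was too dim to be tested, with 2.02 and 5.49 on the day 7 steroid arrays against 10.9 and 17.4 on the mock arrays. On day 3 UFO had 1.77 and 3.82 in steroid tips, against 12.3 and 6.62 in mock tips. On day 1 its arrays overlapped, at 13.1 and 1.71 in steroid tips, against 2.62 and 1.67 in mock tips.

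Markers of stamens, the other organ that AGAMOUS specifies, and of green tissue were set beside the CRC differences. Of 7 stamen genes with a probe set, 3 were tested and none passed in either fit. EMS1, a receptor kinase gene of the tapetum, had log2 differences of -0.05, 0.49 and 0.27, the glutaredoxin gene ROXY1 -1.22, -0.39 and -0.57, and AGL65, a pollen MADS gene, 0.54, -0.60 and -0.16. Their summed signal with the 4 dim members was 156 to 158 in steroid and 158 to 179 in mock tips on day 1. It was 145 to 202 in steroid and 139 to 181 in mock tips on day 3, and 152 to 177 in steroid and 180 to 203 in mock tips on day 7. The anther genes NZZ and AMS were below the 40th percentile on all 12 arrays. The 3 green tissue genes, with medians of -0.38, -0.32 and -0.10 on days 1, 3 and 7, did not pass in either fit. The stamen sum rested largely on EMS1 and, on day 7, also on ROXY1. The part of tissue makeup in the CRC difference was not tested.

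**Figure D4:**
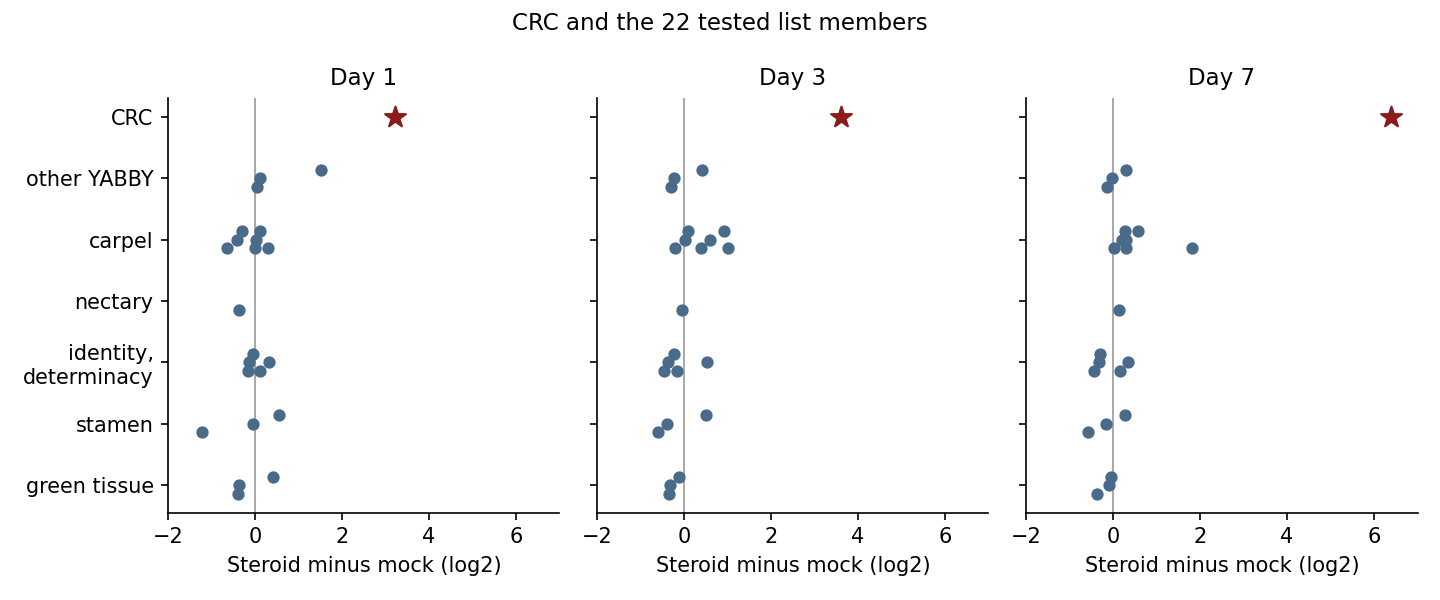
Steroid minus mock difference in log2(scaled signal + 4.35) on days 1, 3 and 7 for CRC (star) and for the 22 tested members of the 6 gene lists (dots, spread vertically only for legibility). CRC lies at 3.22, 3.61 and 6.39, while the list members lie between -1.22 and 1.80.

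The genes that flank CRC on chromosome 1 were looked at as well, a choice made after the values were seen. Of the 10 nearest protein-coding loci, 5 on each side, 5 had a named probe set and 2 were tested. AT1G69160 had log2 differences of 1.08, -0.02 and 0.02 on days 1, 3 and 7, and AT1G69210 had 0.24, -0.25 and -0.04. limma called neither on any day in either fit, with adjusted p of 0.675 for AT1G69160 and 0.863 for AT1G69210 on day 1 in the fit of 12 arrays.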

How the data were processed

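The authors' deposited table holds 1 signal intensity per probe set and array. MAS5 made it, per the submitters' processing notes, with version, target and scaling not given in the sources used here. The labels' protocols give 6 µg of total RNA for the labelled cRNA. The 12 arrays were scaled to a common median, and the median over arrays of the 20th percentile, 4.35, was added before log2. Probe sets above the 40th percentile on at least 2 arrays were tested. limma 3.58.1 in R 4.3.3 (lmFit, eBayes with a trend) fitted 6 group means to all arrays, with 6 residual degrees of freedom, or 2 for 1 day alone. Tests were two-sided. The fit was also run on simulated data with known changes. There the spread was shuffled among probe sets anew for each array, so that run cannot check limma's estimates of spread. CRC, the lists and the rules were chosen with earlier results of these data known.

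Named were CRC, the 8 probe sets most correlated with it, the 3 largest other differences of each day, every YABBY member with a probe set, and list members called in either fit or else the first 3 tested. The other list members in the text were added after their values were seen. A single name was given for 13513 probe sets, several for 503, and 13436 were matched to RefSeq by gene identifier. The table held 64 array controls and 5 values of 0. The alternatives are described in the closing section. Signals carry no counting error that could be computed, and an exact permutation test of 2 against 2 arrays cannot give a p below 0.333.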

Additional observations from a re-analysis of the deposited data

How the results depend on the processing

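The CRC difference was positive under every alternative run, as it must be under a left-out array since the groups do not overlap. Scan date as a block was run for days 1 and 3 only, because on day 7 it coincides with treatment. With the offset halved it was 3.75 on day 1 and 7.03 on day 7, with the offset doubled 2.59 and 5.63, and with a floor in place of the offset 3.72 and 6.90. Without scaling, an alternative added after the data were seen, it was 2.97 on day 1 and 7.16 on day 7. Leaving out 1 array gave 3.10 to 3.35 on day 1, 2.89 to 4.34 on day 3 and 6.05 to 6.73 on day 7. Probe sets called by limma over the whole table were less stable. On day 1 the count was 3, against 0 with no filter, quantile normalization, arrays centred on the tested probe sets, the day alone, array weights per day or scan date as a block. It ran from 0 to 168 without 1 array, the highest without mock day 1 replicate 2. On day 3 it was 3, against 1 with no filter or scan date as a block and 0 for the day alone, and 0 to 11 without 1 array. On day 7 it was 9, against 15 with the offset doubled, 15 without scaling, 267 for the day alone and 290 with array weights, and 3 to 12 without 1 array. Of the list members limma called 0 on each day, and 1 on day 7, NUB, for the day alone or with array weights. Leaving out any 1 array gave 0 on each day. The cause of these changes was not tested. The labels give no basis for pairing by replicate number, and deviations of same-numbered arrays correlated at 0.12, 0.10 and 0.09 on days 1, 3 and 7. With the replicate block the counts were 2, 3 and 8 and the CRC differences were the same, at 3.22, 3.61 and 6.39. All 6 steroid arrays exceeded all 6 mock arrays also without scaling and by place within the array. Weak signals limit the size of the CRC ratio, since no mock array lay above the 40th percentile.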
